A study of Arabidopsis thaliana with 12 samples.

Results

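The 60 Arabidopsis thaliana genes described here encode proteins of the large (60S) subunit of the cytosolic ribosome. They were chosen by name, with earlier results of these data known, as were the gene lists set beside them. They stand for 24 proteins, running from L3 to L36 and including the stalk protein P0. All 60 were found among the 37242 genes of the deposited tables. Young leaves were sequenced in 4 groups of 3 libraries: npf8.4-1 at day 2, npf8.4-1 at day 0, Col-0 at day 2 and Col-0 at day 0. Col-0 is the reference accession, and npf8.4-1 is a mutant of the peptide-transporter family gene NPF8.4. Every plant was raised in hydroponics on 5 mM KNO3 for 15 days. Day 0 plants were harvested then, and day 2 plants after a further 2 days without nitrogen, so that nitrogen depletion and 2 days of age cannot be told apart. Each library came from a pool of 15 plants, which the design text calls a biological replicate. The mutant is represented by 1 allele only.

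Ribosomal proteins are made in the cytosol, imported into the nucleus and assembled on ribosomal RNA in the nucleolus. Arabidopsis keeps several genes for nearly every one of them, and the paralogs often differ in level, so that a leaf can change both how much mRNA it holds for a protein and which gene supplies it. Ribosomes hold a large part of a leaf cell's protein and RNA, and their synthesis is known to follow growth and nutrient supply through the TOR kinase.

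The libraries held between 28761674 and 34282716 exon reads. NPF8.4 itself had 22, 47 and 22 reads in npf8.4-1 at day 2 and 25, 10 and 10 at day 0, against 568, 479 and 342 in Col-0 at day 2 and 250, 231 and 174 at day 0, in keeping with the labels. The 5 leaf mesophyll markers, such as the Rubisco small subunit gene RBCS1A, summed to between 52483 and 71266 TPM in every library. The 5 root markers summed to at most 1.27 TPM and the 6 flower and meristem markers to at most 2.10 TPM. The root hair genes EXPA7 and RHD6 and the meristem genes WUS and STM had no reads in any library. TPM, the authors' deposited level scaled by gene length and library size, is used here for levels. Changes are log2 fold changes of read counts from the edgeR quasi-likelihood test, with Benjamini-Hochberg adjustment over 19416 genes and a threshold of 0.05.

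Transcripts for the large subunit fell after 2 days without nitrogen in both genotypes. Together the 60 genes took 0.644, 0.661 and 0.889% of all TPM in the npf8.4-1 libraries at day 2, against 2.76, 3.23 and 3.16% at day 0. In Col-0 they took 0.647, 0.802 and 0.837% at day 2, against 2.57, 2.79 and 3.02% at day 0. The day 2 and day 0 libraries did not overlap in either genotype. The sum averaged 7317 ± 1369 TPM at day 2 and 30508 ± 2582 TPM at day 0 in npf8.4-1, and 7619 ± 1012 TPM at day 2 and 27923 ± 2248 TPM at day 0 in Col-0 (SD, n = 3 each). The mean sum was 4.17-fold lower at day 2 in npf8.4-1 and 3.66-fold lower in Col-0. In bulk leaves, fewer cells with many ribosomes and less RNA per cell cannot be told apart.

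**Figure D1:**
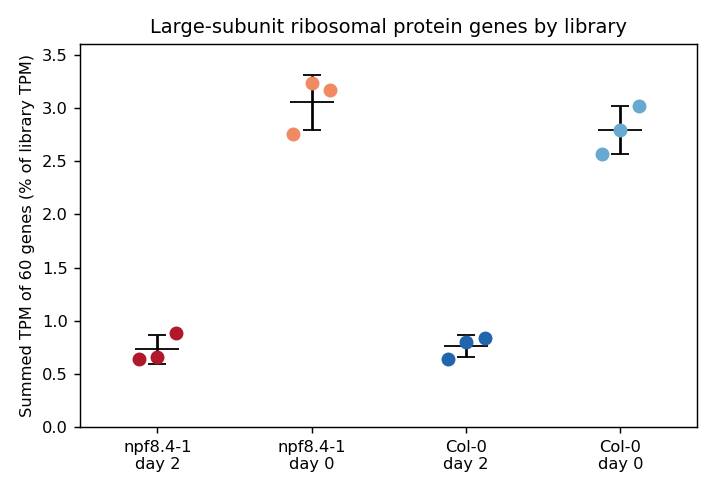
Summed TPM of the 60 large-subunit genes as a percentage of all TPM (vertical axis) in each of the 12 libraries (points), with the mean and SD of 3 libraries (black). All 6 day 2 libraries lie at or below 0.889% and all 6 day 0 libraries at or above 2.57%.

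Gene by gene, 59 of the 60 members passed the filter on low counts, and each of the 59 had at least 73 reads in every library. The exception was AT3G51190, an L8 gene with 1 read in all 12 libraries together. In npf8.4-1 all 59 tested members were lower at day 2 (edgeR adjusted p under the threshold for each, at most 1.24e-05), where 31.6% of the genes tested were called lower. None was higher, where 32.5% of genes were called higher. In Col-0 all 59 were lower as well (adjusted p at most 3.90e-05), where 30.4% of genes were called lower and 29.6% higher. All 59 fell by at least 2-fold in each genotype, as did 14.2% of genes in npf8.4-1 and 12.6% in Col-0. In CPM, the 3 day 2 libraries lay below the 3 day 0 libraries for 59 of 59 members in both genotypes, against 34.4% of genes in npf8.4-1 and 33.3% in Col-0. The median log2 fold change of the 59 was −2.22 in npf8.4-1, beside 0.03 for all tested genes, and −1.99 in Col-0, beside 0.02. Standard errors ran from 0.11 to 0.24 in npf8.4-1 and from 0.11 to 0.24 in Col-0. The largest fall was that of the P0 gene AT2G40010 and the smallest that of the L6 gene AT1G74050, in both genotypes.

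Within a group, the members shifted together from library to library. The third npf8.4-1 library of day 2 had the highest CPM of its group for 59 of 59 members, and the third Col-0 library of day 2 for 53. At day 0 the second npf8.4-1 library was highest for 58 members and the third Col-0 library for 52. Without the third day 2 library of both genotypes, 59 of 59 members were still called lower in each, with medians of −2.41 in npf8.4-1 and −2.15 in Col-0.

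Markers of dividing cells moved with the ribosomal genes. All 12 fell in both genotypes, with medians of −1.87 in npf8.4-1 and −1.61 in Col-0, where 31.6% and 30.4% of all genes were called lower. Their summed level ran from 109 to 191 TPM at day 2 and 424 to 579 at day 0 in npf8.4-1, and from 121 to 176 at day 2 and 367 to 534 at day 0 in Col-0. None of the 12 was at 0. The replication clamp gene PCNA2 had −1.81 in npf8.4-1 and −1.64 in Col-0. Of the 5 leaf mesophyll markers, 1 rose and 1 fell in npf8.4-1, and 1 rose and 4 did not pass in Col-0. Of all genes, 32.5% rose in npf8.4-1 and 29.6% in Col-0, so counts of 5 markers are not set apart from the background. The part of the share of dividing cells in the fall of ribosomal genes was not tested.

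**Figure D2:**
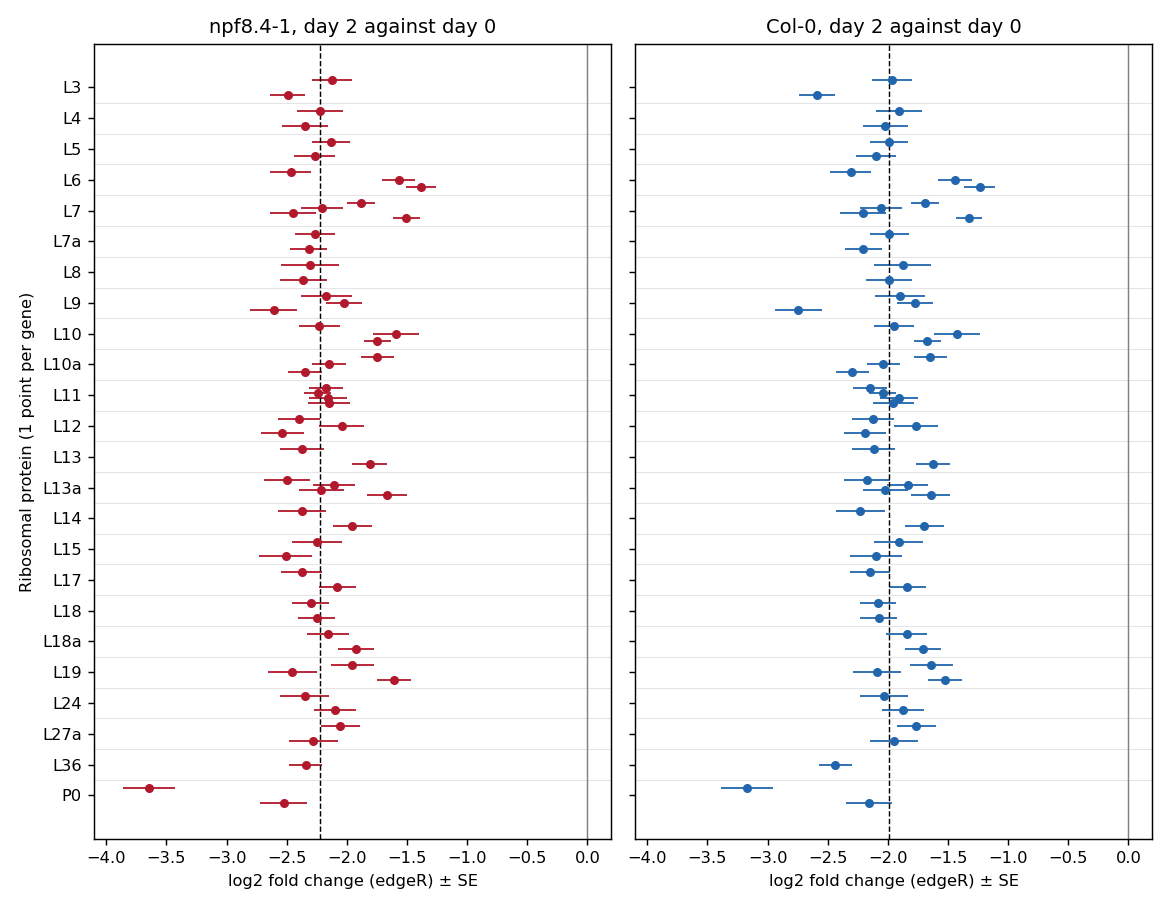
The log2 fold change of day 2 against day 0 (horizontal axis, bars are the standard error) for 59 genes in npf8.4-1 (left) and Col-0 (right), in rows by protein, with the median as a dashed line. Every point lies left of zero, and paralogs of L6, L7, L9, L10, L13a, L19 and P0 spread along their row.

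Several proteins line the catalytic heart of the subunit, where peptide bonds form. L3 and L8 reach towards the peptidyl transferase centre, and L10 joins late beside it. RP1 (AT1G43170, TAIR10 chromosome 1, 16266553 to 16268945, forward strand), the main L3 gene, had 258, 255 and 351 TPM in npf8.4-1 at day 2 and 1075, 1210.2 and 1233 TPM at day 0, and 230.3, 319.7 and 297 TPM in Col-0 at day 2 and 979.8, 1048 and 1174 TPM at day 0. Its paralog RPL3B (AT1G61580) was far scarcer, with 7.51, 8.06 and 9.05 TPM in npf8.4-1 at day 2 and 39.3, 45.9 and 44.4 TPM at day 0, and 5.47, 7.25 and 7.05 TPM in Col-0 at day 2 and 32.5, 37.3 and 45.3 TPM at day 0. For both genes the day 2 values lie below all day 0 values. On the log2 scale the fold change of RP1 was −2.12 in npf8.4-1 and −1.97 in Col-0, and that of RPL3B was −2.49 in npf8.4-1 and −2.59 in Col-0. For L8, EMB2296 (AT2G18020), named for an embryo-defective mutant, had 122, 141 and 176 TPM in npf8.4-1 at day 2 and 543, 784 and 694 TPM at day 0, and 155, 139.6 and 228 TPM in Col-0 at day 2 and 612, 629 and 632 TPM at day 0. Its partner AT4G36130 averaged 68.5 TPM in npf8.4-1 at day 2 and 329.5 at day 0, and 78.1 in Col-0 at day 2 and 301 at day 0. L8 messages thus came from 2 of the 3 genes listed for it, the third being the nearly unread AT3G51190.

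The L10 gene SAC52 (AT1G14320) is known from a mutant that restores stem growth to acaulis5 plants. It had 210.2, 218 and 296 TPM in npf8.4-1 at day 2 and 961, 1153 and 1057 TPM at day 0, and 220.0, 254 and 282 TPM in Col-0 at day 2 and 876, 946 and 995 TPM at day 0. SAG24 (AT1G66580), an L10 gene named for its association with senescence, averaged 119.9 TPM at day 2 and 377 at day 0 in npf8.4-1, and 115 at day 2 and 353 at day 0 in Col-0. SAC52 had a log2 fold change of −2.23 in npf8.4-1 and −1.95 in Col-0, SAG24 of −1.75 in npf8.4-1 and −1.67 in Col-0, and RPL10B of −1.59 in npf8.4-1 and −1.43 in Col-0. All 3 L10 genes fell.

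L4 and L17 help to form the tunnel through which the new peptide leaves, and L15 and L27a lie among the rRNA helices of the core. The more abundant L4 gene, AT5G02870, had 89.5, 96.9 and 133 TPM in npf8.4-1 at day 2 and 444, 559.9 and 517 TPM at day 0, and 97.8, 116 and 133 TPM in Col-0 at day 2 and 427, 456 and 483 TPM at day 0. AT1G67430, an L17 gene, had the highest day 0 mean of the 60 members. It had 296, 302 and 410.4 TPM in npf8.4-1 at day 2 and 1253, 1369 and 1369.5 TPM at day 0, and 296, 372 and 365 TPM in Col-0 at day 2 and 1085, 1196 and 1288 TPM at day 0. No other member passed its day 0 group mean in either genotype. The L15 gene AT4G16720 had 131, 142 and 184 TPM in npf8.4-1 at day 2 and 573, 765 and 691 TPM at day 0, and 134, 155 and 202 TPM in Col-0 at day 2 and 558, 604 and 635 TPM at day 0. The L27a gene AT1G70600 had 114, 126 and 175 TPM in npf8.4-1 at day 2 and 532, 689.9 and 662 TPM at day 0, and 122, 146 and 171 TPM in Col-0 at day 2 and 481, 547 and 622 TPM at day 0. Over the 8 members for these 4 proteins the log2 fold change ran from −2.51 to −2.05 in npf8.4-1 and from −2.15 to −1.76 in Col-0.

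L5 and L11 travel with the 5S rRNA as a small particle before they are built into the subunit. ATL5 (AT3G25520), also called OLI5 and PGY3 after its leaf-shape mutants, had 249.8, 235 and 323 TPM in npf8.4-1 at day 2 and 1065, 1132 and 1116 TPM at day 0, and 222, 311 and 285 TPM in Col-0 at day 2 and 987, 1035 and 1113 TPM at day 0. RPL5B (AT5G39740, also OLI7) was nearly as abundant and had 199, 188 and 268 TPM in npf8.4-1 at day 2 and 915, 1013 and 1029.7 TPM at day 0, and 179, 251 and 225 TPM in Col-0 at day 2 and 822, 888 and 1003 TPM at day 0. For L11, the leading gene RPL16B (AT4G18730) had 89.8, 98.9 and 129 TPM in npf8.4-1 at day 2 and 392, 471 and 466 TPM at day 0, and 97.9, 112 and 121 TPM in Col-0 at day 2 and 375, 398 and 427 TPM at day 0. All 6 genes for these proteins fell, with log2 fold changes from −2.27 to −2.13 in npf8.4-1 and from −2.15 to −1.90 in Col-0.

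The stalks of the subunit handle tRNAs and translation factors. P0 anchors the acidic stalk at a base formed with L12, and L10a forms the stalk on the other side. AT3G09200 supplied nearly all P0 message among the members, with 177, 185 and 252 TPM in npf8.4-1 at day 2 and 923, 1192 and 1189 TPM at day 0, and 198, 204 and 265 TPM in Col-0 at day 2 and 889, 979.9 and 1017 TPM at day 0. The minor P0 gene AT2G40010 (chromosome 2, 16708379 to 16710772, reverse strand) had 2.35, 2.69 and 4.64 TPM in npf8.4-1 at day 2 and 34.5, 39.8 and 38.9 TPM at day 0, and 4.46, 3.03 and 3.17 TPM in Col-0 at day 2 and 31.0, 30.6 and 30.3 TPM at day 0. It fell most of the 59, by 12.5-fold in npf8.4-1 (log2 fold change −3.64, SE 0.22, edgeR adjusted p = 8.35e-08) and 9.0-fold in Col-0 (−3.17, SE 0.22, adjusted p = 2.45e-07). A further P0 gene outside the 60, AT3G11250, named after its values were seen, had a log2 fold change of −1.81 in npf8.4-1 and −1.51 in Col-0. It averaged 24.1 TPM at day 2 and 79.3 at day 0 in npf8.4-1, and 26.2 at day 2 and 71.9 at day 0 in Col-0. These means lay above those of AT2G40010 in every group.

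For L12, AT3G53430 had 89.7, 90.2 and 124 TPM in npf8.4-1 at day 2 and 339, 434 and 395 TPM at day 0, and 90.2, 110.0 and 126 TPM in Col-0 at day 2 and 331, 358 and 389 TPM at day 0. AT2G37190 had 71.8, 76.8 and 93.6 TPM in npf8.4-1 at day 2 and 336, 449.5 and 406 TPM at day 0, and 80.8, 84.6 and 105 TPM in Col-0 at day 2 and 338, 381 and 424 TPM at day 0. The 2 genes were close in level, with AT2G37190 the higher on average at day 0 and AT3G53430 at day 2. The L10a gene PGY1 (AT2G27530), which gives the PIGGYBACK1 leaf-polarity mutant, had 175, 168 and 229.8 TPM in npf8.4-1 at day 2 and 767, 791 and 825 TPM at day 0, and 169, 221 and 185 TPM in Col-0 at day 2 and 695, 747 and 829 TPM at day 0. L9 sits near the stalk base, and its gene PGY2 (AT1G33140) had 160.3, 183 and 221 TPM in npf8.4-1 at day 2 and 648, 749.7 and 747 TPM at day 0, and 182, 191 and 221 TPM in Col-0 at day 2 and 604, 668 and 698 TPM at day 0. The minor L9 gene AT4G10450 was the second most reduced member in both genotypes, with 7.80, 10.3 and 15.9 TPM in npf8.4-1 at day 2 and 65.1, 64.0 and 65.1 TPM at day 0, and 9.38, 10.6 and 9.62 TPM in Col-0 at day 2 and 57.3, 64.6 and 69.1 TPM at day 0, and a log2 fold change of −2.61 in npf8.4-1 and −2.74 in Col-0. Over the 11 members for P0, L12, L10a and L9 the change ran from −3.64 to −1.75 in npf8.4-1 and from −3.17 to −1.65 in Col-0.

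L19 and L24 reach over to the small subunit. EMB2386 (AT1G02780), an L19 gene, had the highest day 2 mean of the 60, with 309, 326 and 407 TPM in npf8.4-1 at day 2 and 1048, 1368 and 1364 TPM at day 0, and 323, 365 and 446 TPM in Col-0 at day 2 and 1071, 1140.5 and 1219.7 TPM at day 0. STV1 (AT3G53020), the L24 gene known from short-valve fruit and from translation of messages with upstream reading frames, had 164, 176 and 237 TPM in npf8.4-1 at day 2 and 676, 822 and 815 TPM at day 0, and 160.5, 209.8 and 209.7 TPM in Col-0 at day 2 and 612, 693 and 754 TPM at day 0. The L24 partner RPL24A had a log2 fold change of −2.35 in npf8.4-1 and −2.03 in Col-0, next to −2.10 in npf8.4-1 and −1.88 in Col-0 for STV1. Among the L19 genes AT4G02230 fell least, with −1.61 in npf8.4-1 and −1.53 in Col-0, and AT3G16780 most, with −2.45 in npf8.4-1 and −2.09 in Col-0.

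The other proteins make up much of the outer shell. The L7a gene AT3G62870 had 165, 159.8 and 220.2 TPM in npf8.4-1 at day 2 and 792, 902 and 851 TPM at day 0, and 158, 192 and 192 TPM in Col-0 at day 2 and 746, 815 and 848 TPM at day 0. AT2G47610, also for L7a, averaged 189 TPM in npf8.4-1 at day 2 and 852 at day 0, and 198 in Col-0 at day 2 and 758 at day 0. BBC1 (AT3G49010), an L13 gene, had 100.1, 109.6 and 155 TPM in npf8.4-1 at day 2 and 512, 626 and 624 TPM at day 0, and 108, 129 and 138 TPM in Col-0 at day 2 and 482, 543 and 551 TPM at day 0. The L13a gene AT3G24830 had 149.8, 168 and 221 TPM in npf8.4-1 at day 2 and 677, 759.8 and 733 TPM at day 0, and 151, 198 and 212 TPM in Col-0 at day 2 and 601, 654 and 685 TPM at day 0. AT3G62870, BBC1 and AT3G24830 kept their day 2 libraries under their day 0 libraries. AT4G27090, for L14, had 280.5, 291 and 388 TPM in npf8.4-1 at day 2 and 1059, 1204 and 1223 TPM at day 0, and 278, 395 and 353 TPM in Col-0 at day 2 and 969.7, 1064 and 1172 TPM at day 0. RPL18 (AT3G05590) had 138, 135 and 186 TPM in npf8.4-1 at day 2 and 675, 716 and 726 TPM at day 0, and 134, 164 and 169.5 TPM in Col-0 at day 2 and 599, 634 and 682 TPM at day 0. The L18a gene AT2G34480 had 221, 222 and 309 TPM in npf8.4-1 at day 2 and 972, 1110.1 and 1056 TPM at day 0, and 225, 283 and 306 TPM in Col-0 at day 2 and 873, 947 and 1015 TPM at day 0. The values of these 3 genes did not overlap between days in either genotype. L36 has a single gene among the 60, AT2G37600, with 35.3, 34.0 and 45.4 TPM in npf8.4-1 at day 2 and 167, 194 and 183 TPM at day 0, and 30.2, 37.4 and 35 TPM in Col-0 at day 2 and 164, 179 and 192 TPM at day 0, and a log2 fold change of −2.34 in npf8.4-1 and −2.44 in Col-0. The remaining members for these proteins lay within the range of the 60: over the 15 members for L7a, L13, L13a, L14, L18, L18a and L36 the log2 fold change ran from −2.50 to −1.67 in npf8.4-1 and from −2.44 to −1.62 in Col-0.

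L6 and L7 held the members that fell least. Of the L6 genes, AT1G18540 (chromosome 1, 6376639 to 6378580, reverse strand) had 75.8, 76.4 and 112 TPM in npf8.4-1 at day 2 and 416, 476 and 472 TPM at day 0, and 76.8, 91.8 and 95.3 TPM in Col-0 at day 2 and 383, 421 and 462 TPM at day 0. AT1G74050 (chromosome 1, 27847038 to 27849008, reverse strand) had 154, 145 and 180.0 TPM in npf8.4-1 at day 2 and 365, 399 and 404 TPM at day 0, and 141, 175 and 167 TPM in Col-0 at day 2 and 338, 369 and 392 TPM at day 0. AT1G74060, its neighbour upstream on the same strand, had 68.4, 72.3 and 89.8 TPM in npf8.4-1 at day 2 and 191, 225 and 224 TPM at day 0, and 66.9, 84.4 and 80.5 TPM in Col-0 at day 2 and 189, 196 and 223 TPM at day 0. Day 2 lay below day 0 for each, but AT1G18540 was second in level at day 2 and the most abundant of the 3 at day 0. The log2 fold change of AT1G18540 was −2.47 in npf8.4-1 and −2.31 in Col-0, that of AT1G74050 −1.38 in npf8.4-1 and −1.24 in Col-0 and that of AT1G74060 −1.57 in npf8.4-1 and −1.44 in Col-0. The leading L7 gene, AT2G01250, had 169, 175 and 238 TPM in npf8.4-1 at day 2 and 758, 867 and 881 TPM at day 0, and 157, 218 and 204 TPM in Col-0 at day 2 and 683, 768 and 877 TPM at day 0. AT3G13580 (chromosome 3, 4433047 to 4435305, forward strand) had 48.7, 47.9 and 59.2 TPM in npf8.4-1 at day 2 and 132, 138 and 144 TPM at day 0, and 47.6, 58.8 and 52.7 TPM in Col-0 at day 2 and 123, 125 and 135 TPM at day 0. Their log2 fold changes were −2.20 in npf8.4-1 and −2.06 in Col-0 for AT2G01250, and −1.51 in npf8.4-1 and −1.32 in Col-0 for AT3G13580. The other L7 genes were AT2G44120, with −2.45 in npf8.4-1 and −2.21 in Col-0, and AT1G80750, with −1.88 in npf8.4-1 and −1.69 in Col-0. The smallest fall, that of AT1G74050, was 2.60-fold in npf8.4-1 (SE 0.13, edgeR adjusted p = 1.08e-06) and 2.36-fold in Col-0 (SE 0.13, adjusted p = 3.46e-06).

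With members summed by protein, the spread of change over proteins was smaller than that over single genes. On deposited TPM, the log2 ratio of the day 2 mean to the day 0 mean ran over the 24 proteins from −2.45 (P0) to −1.70 (L6) in npf8.4-1, with an SD over proteins of 0.15. Over the 59 genes the same ratio had an SD of 0.34. In Col-0 it ran from −2.38 (L36) to −1.60 (L6), with an SD of 0.16 over proteins and 0.32 over genes. The sums cover only the members: L36 is a single gene here, P0 leaves out AT3G11250 and L18a leaves out RPL18AA (AT1G29970). A sum follows its most abundant paralog and gives scarce genes little weight, so a smaller spread is partly fixed in advance by summing. No test was made of this spread.

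Whether paralogs of 1 protein fell alike was tested on their shares. For each paralog the log2 ratio of its TPM to the summed TPM of the other tested members for the same protein was compared between days, with day labels permuted within genotype (exact permutation test, two-sided, 6 libraries against 6). This gave 44 ratios over 23 proteins, since the paralogs of a pair mirror each other, and no adjustment was made over them. In the 9 proteins with more tested members than a pair, the ratios share terms and are not independent. At an unadjusted exact p under 0.05, 36 of 44 shares differed between days (81.8%), in 20 of the 23 proteins. Of these shares, 32 reached 0.005, the smallest p that the 400 arrangements can give. Over all genes, 64.1% in npf8.4-1 and 60% in Col-0 were called between days in the edgeR fit. Ratios of unrelated genes were not computed, so the count of shares has no background and is not set apart from one. The median size of the difference was 0.29 on the log2 scale. The proteins with no such share were L8, L11 and L18.

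Among the tested ratios, the largest shifts on the log2 scale were in P0 and L6. Shares are of the members' summed TPM, so genes outside the 60 are left out: AT3G11250 for P0 and RPL18AA for L18a. RPL18AA, named after its values were seen, averaged 19.7 TPM at day 2 and 15.4 at day 0 in npf8.4-1. In Col-0 it averaged 20.8 at day 2 and 17.2 at day 0. The L18a members summed on average to 359 TPM at day 2 and 1432 at day 0 in npf8.4-1. In Col-0 they summed to 388 at day 2 and 1311 at day 0. No share was computed for RPL18AA, and its shift was not tested. Of the TPM of the 2 P0 members, AT2G40010 made up 1.52% ± 0.257 at day 2 and 3.33% ± 0.236 at day 0 in npf8.4-1, and 1.62% ± 0.531 at day 2 and 3.09% ± 0.244 at day 0 in Col-0 (SD, n = 3), a difference in log2 ratio of −1.09 (exact p = 0.005). Of L6 TPM, AT1G18540 held 26.9% ± 2.06 at day 2 and 43.0% ± 0.280 at day 0 in npf8.4-1, and 27% ± 0.804 at day 2 and 42.6% ± 0.422 at day 0 in Col-0, a difference of −1.02 (exact p = 0.005). AT1G74050 held 49.4% ± 2.21 at day 2 and 36.9% ± 0.655 at day 0 in npf8.4-1, and 49.3% ± 0.514 at day 2 and 37.0% ± 0.523 at day 0 in Col-0, a difference of 0.74 (exact p = 0.005). The order of these L6 genes at day 2 was the reverse of that at day 0 in every library. In L7, AT3G13580 held 15.8% ± 1.09 at day 2 and 10.2% ± 0.366 at day 0 in npf8.4-1, and 15.9% ± 1.02 at day 2 and 10.1% ± 0.604 at day 0 in Col-0, with a difference of 0.74 (exact p = 0.005). The minor L9 gene AT4G10450 held 3.52% ± 0.609 at day 2 and 5.14% ± 0.523 at day 0 in npf8.4-1, and 3.03% ± 0.452 at day 2 and 5.47% ± 0.0649 at day 0 in Col-0, with a difference of −0.74 (exact p = 0.005). None of these ranges overlapped between the 6 day 2 and the 6 day 0 libraries. An exact p of 0.005 already requires the days to separate within each genotype. The lack of overlap is therefore largely fixed by how these shares were picked and is no further support.

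The other 3 of the 8 shifts of largest size at the smallest p were in L13, L19 and L3. Of L13 TPM, BBC1 supplied 58.0% ± 1.87 at day 2 and 67.2% ± 0.910 at day 0 in npf8.4-1, and 58.5% ± 0.644 at day 2 and 66.5% ± 1.09 at day 0 in Col-0, a difference of −0.53 (exact p = 0.005). Of L19 TPM, AT3G16780 supplied 8.92% ± 0.169 at day 2 and 12.7% ± 0.688 at day 0 in npf8.4-1, and 9.11% ± 0.719 at day 2 and 12.3% ± 0.928 at day 0 in Col-0, a difference of −0.53 (exact p = 0.005). Of L3 TPM, RP1 supplied 97.2% ± 0.275 at day 2 and 96.4% ± 0.0908 at day 0 in npf8.4-1, and 97.7% ± 0.0584 at day 2 and 96.5% ± 0.251 at day 0 in Col-0, a difference of 0.48 (exact p = 0.005). In 20 of the 23 proteins with 2 or more members, the gene with the highest mean TPM was the same in all 4 groups. The exceptions were L6 and L12, whose leading gene differed between days in both genotypes, and L7a, where it differed in Col-0 only. The L7a genes were nearly equal, and AT2G47610 held 50.3, 49.0 and 51.1% in the npf8.4-1 libraries at day 0. Averaged over both days, its share did not differ between genotypes (difference in log2 ratio 0.008, exact permutation p = 0.855). That average cannot show differences of opposite sign at the 2 days. AT2G47610 averaged 50.9% at day 2 and 50.1% at day 0 in npf8.4-1, and 52.2% at day 2 and 48.5% at day 0 in Col-0. Whether its shift between days differed between genotypes was not tested. AT3G53430, the L12 gene that led at day 2, held 49.8% ± 1.44 at day 2 and 43.3% ± 0.347 at day 0 in npf8.4-1, and 48.5% ± 1.90 at day 2 and 42.2% ± 0.591 at day 0 in Col-0 (exact p = 0.005).

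**Figure D3:**
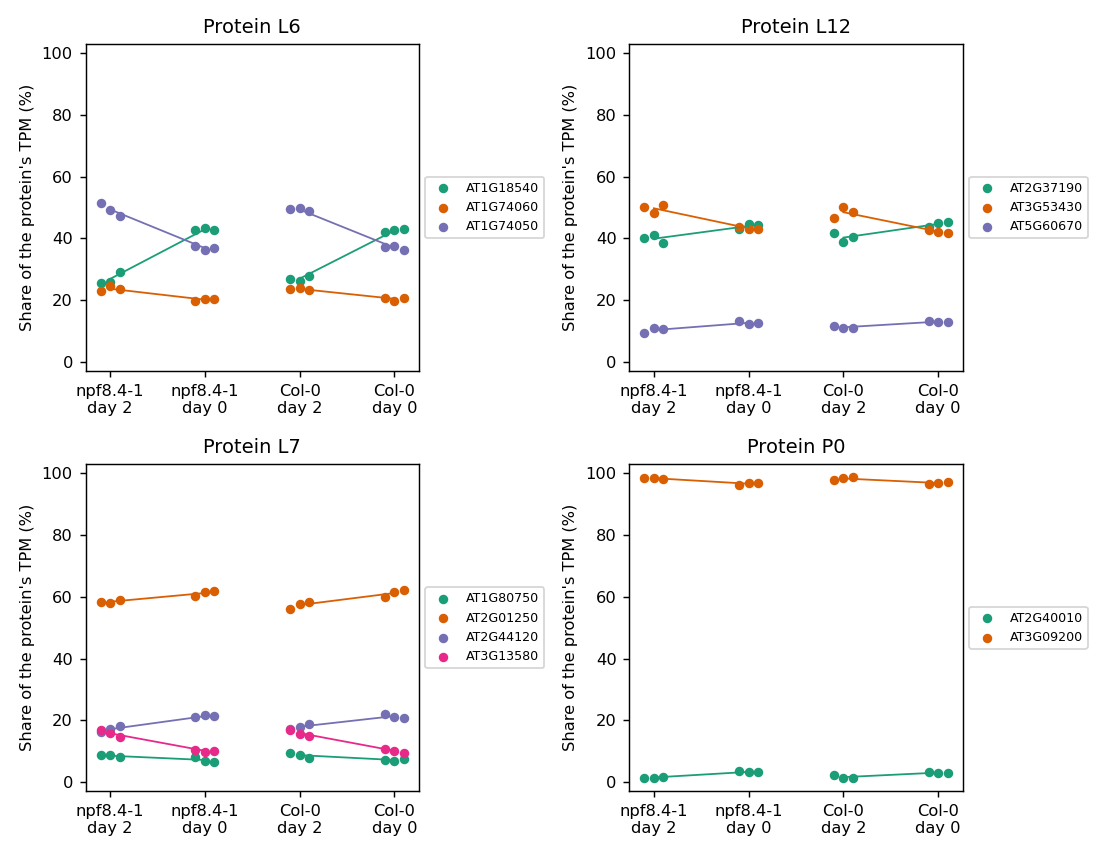
Share held by each member of the summed TPM of a protein's members among the 60 (vertical axis, percent) in the 12 libraries (points, lines join group means of the same genotype), for L6, L12, L7 and P0. The lines of AT1G18540 and AT1G74050 cross between day 2 and day 0 in both genotypes.

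How well reads can be told apart between paralogs limits these shares. In RefSeq's coding sequences the 52 paralog pairs were between 63.8% and 99.1% identical, and 6 pairs were over 90%. AT1G33120 and PGY2, both for L9 and near each other on chromosome 1, were 99.1% identical with a run of 458 identical bases, so the split of reads between them is uncertain. The L11 pair RPL16A and AT3G58700 shared a run of 113 bases. AT1G74050 and AT1G74060 were 94.2% identical, with a longest shared run of 65 bases. AT1G18540, the L6 gene that fell more, was 84.8% identical to AT1G74050 with a run of 34 bases. AT2G40010 and AT3G09200 were 79.4% identical with a run of 23 bases. By shared words of 12 bases, the nearest relative of all 59 members with a paralog in the set was another gene for the same protein. Of the 60 members, 19 overlap another gene of the tables. Over all 12 libraries, the reads of AT4G18740, which overlaps RPL16B by 90 bases on the opposite strand, came to 23.0% of those of RPL16B. Those of AT3G09210, which overlaps the P0 gene AT3G09200 by 100 bases on the same strand, came to 17.8% of its reads. The longest overlap, 1376 bases on the opposite strand, was that of AT4G13170 with AT4G13160, whose reads came to 8.08% of its own. How many of these reads fall in the overlaps was not tested.

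Promoters of ribosomal protein genes in Arabidopsis are known for short repeated elements, the site II element, bound by TCP factors, and the telo box, which resembles the telomere repeat. Both were searched on both strands from 250 bases before to 50 bases after the annotated gene start, as TGGGCC or TGGGCT for site II and AAACCCTA for the telo box, with overlapping matches counted. The promoters printed here, from RefSeq's TAIR10.1 genome, are those of members at the ends of the range of change, with a relative for 2 of them, and of the unread L8 gene. Up to 250 bases before the start are shown, cut at the end of a neighbouring gene, with matches on either strand in capitals.
P0 gene AT2G40010 with the largest fall, chr2:16710773-16710928, reverse strand: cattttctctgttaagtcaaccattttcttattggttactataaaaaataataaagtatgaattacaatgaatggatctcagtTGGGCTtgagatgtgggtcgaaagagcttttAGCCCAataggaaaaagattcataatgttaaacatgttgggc
L6 gene AT1G18540 with a larger fall, chr1:6378581-6378830, reverse strand: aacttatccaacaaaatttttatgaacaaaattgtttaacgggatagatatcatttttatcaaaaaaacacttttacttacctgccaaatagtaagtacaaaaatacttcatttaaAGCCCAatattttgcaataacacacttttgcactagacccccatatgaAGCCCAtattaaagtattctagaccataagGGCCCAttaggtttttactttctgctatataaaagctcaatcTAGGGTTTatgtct
L6 gene AT1G74050 with the smallest fall, chr1:27849009-27849216, reverse strand: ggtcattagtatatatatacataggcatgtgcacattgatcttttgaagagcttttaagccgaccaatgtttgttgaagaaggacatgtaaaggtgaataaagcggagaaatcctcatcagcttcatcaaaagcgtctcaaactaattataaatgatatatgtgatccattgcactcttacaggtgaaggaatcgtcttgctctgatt
leading L7 gene AT2G01250, chr2:134456-134705, reverse strand: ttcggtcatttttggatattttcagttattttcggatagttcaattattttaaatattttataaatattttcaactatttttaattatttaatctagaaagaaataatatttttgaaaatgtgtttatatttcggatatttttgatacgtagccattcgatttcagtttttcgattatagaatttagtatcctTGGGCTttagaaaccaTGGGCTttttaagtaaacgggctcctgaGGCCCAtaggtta
L7 gene AT3G13580 with the smallest fall for L7, chr3:4432797-4433046, forward strand: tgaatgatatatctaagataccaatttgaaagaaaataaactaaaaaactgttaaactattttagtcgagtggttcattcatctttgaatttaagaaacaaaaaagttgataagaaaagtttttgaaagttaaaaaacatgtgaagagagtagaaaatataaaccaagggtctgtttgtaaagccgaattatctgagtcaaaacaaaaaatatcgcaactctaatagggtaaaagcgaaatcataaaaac
unread L8 gene AT3G51190, chr3:19017548-19017797, reverse strand: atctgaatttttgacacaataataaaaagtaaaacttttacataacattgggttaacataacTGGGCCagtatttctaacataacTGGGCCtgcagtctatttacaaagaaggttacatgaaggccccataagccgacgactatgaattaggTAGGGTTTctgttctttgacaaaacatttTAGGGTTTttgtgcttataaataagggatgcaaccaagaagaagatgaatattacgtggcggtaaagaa

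A site II match was present for 54 of the 60 members (90%), beside 21.7% of 27443 protein-coding nuclear genes. A telo box match was present for 33 (55.0%), beside 6.22%, and both for 29 (48.3%), beside 2.20%. Neither was found for 2 members (3.33%), beside 74.3% of all genes. Those 2 were AT1G74050 and AT3G13580, the members with the smallest and second smallest fall in both genotypes. The comparison was made after both the changes and the matches had been seen, and it carries no test. In npf8.4-1 the log2 fold change was −1.38 for AT1G74050 and −1.51 for AT3G13580, beside −2.51 to −1.57 for the 28 tested members with both elements. In Col-0 it was −1.24 for AT1G74050 and −1.32 for AT3G13580, and those with both ran from −2.44 to −1.44. In a window to 250 bases after the start AT1G74050 had a match too, and AT3G13580 had none. Counting only bases before the start, or only the given strand, left 11 members with neither each time. Those 11 held AT1G74050 and AT3G13580, but also AT4G10450, the member with the second largest fall (−2.61 in npf8.4-1 and −2.74 in Col-0). The given strand alone also left AT1G18540 with neither (−2.47 in npf8.4-1 and −2.31 in Col-0). The link between a lack of both elements and a small fall was therefore seen in the main window on both strands and not in these narrower searches.

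Over all tested members, the number of site II matches went with little difference in the median change. The median log2 fold change was −2.26 in npf8.4-1 and −2.01 in Col-0 for the 8 members with 1 site II match. It was −2.21 in npf8.4-1 and −2.02 in Col-0 for the 24 members with 3 or more. Members with a telo box had medians of −2.17 in npf8.4-1 and −1.93 in Col-0, and the 27 without one, AT1G74050 and AT3G13580 included, −2.25 in npf8.4-1 and −2.02 in Col-0. AT1G74060, which shared the small fall of its neighbour, had 3 site II matches and 1 telo box. The unread L8 gene AT3G51190 held 2 site II matches and 2 telo boxes. A match describes these letters only and is no evidence of binding.

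**Figure D4:**
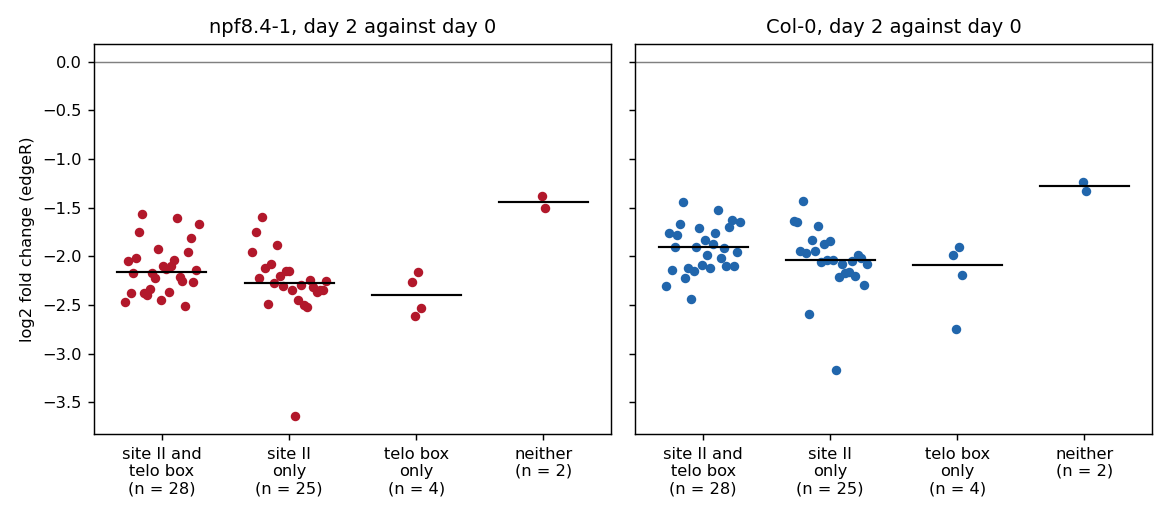
The log2 fold change of day 2 against day 0 (vertical axis) for the 59 tested genes in npf8.4-1 (left) and Col-0 (right), by the elements found around the gene start, with class medians as lines. The 2 genes with neither element lie at −1.51 and −1.38 in npf8.4-1 and at −1.32 and −1.24 in Col-0.

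The genotypes were compared at each day, since the mutant lacks most NPF8.4 message. At day 2, 0 of the 59 members were called (edgeR; 0 also at an unadjusted p under 0.05, and 0 with DESeq2), where 1.44% of genes were called. The log2 fold change of npf8.4-1 against Col-0 ran from −0.30 to 0.29, with a median of −0.09 beside 0.02 for all genes. At day 0 again 0 of 59 were called (edgeR; 0 at an unadjusted p under 0.05, and 0 with DESeq2), where 0.149% of genes were called. The values at day 0 were all above zero, from 0.03 to 0.31, with a median of 0.14 beside 0.00. In CPM, 4 of 59 members had all npf8.4-1 libraries above all Col-0 libraries at day 0, as did 6.0% of genes. The members shift together between libraries, so their shared sign is not 59 separate observations. The 95% intervals of single genes reached from −0.80 to 0.62 at day 2 and from −0.37 to 0.72 at day 0, and the unadjusted count at day 2 was 5 of 59 without the third npf8.4-1 library of day 2, with 0 called after adjustment. Differences within these intervals could not be resolved with 3 libraries a group.

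The depletion change itself was compared between genotypes by the interaction term. It passed for 0 of 59 members (edgeR; 0 at an unadjusted p under 0.05, and 0 with DESeq2) and for 0% of all genes. The unadjusted count depended on which libraries were used. It was 15 of 59 without the third npf8.4-1 library of day 2 and 3 without the first Col-0 library of day 2. Without the third day 2 library of both genotypes it was 2, with 0 called after adjustment each time. Over all genes 1759 were under an unadjusted p of 0.05, and DESeq2 called 269. Values ran from −0.47 to 0.13, and 56 of 59 were negative, with a median of −0.22 beside 0.02 for all genes. Their 95% intervals reached from −1.14 to 0.71. The day 0 and day 2 comparisons of genotype enter this term, so it is no separate observation. Paralog shares were also compared between genotypes, with labels permuted within day and the difference averaged over both days. At an unadjusted exact p under 0.05 there were 3 of 44 shares (6.82%), beside 2.2 expected at that threshold if none differed. They were those of RP1 for L3, AT5G60670 for L12 and AT4G16720 for L15, each with exact p = 0.03. The count is not set apart from the expected one. The largest of these differences in log2 ratio was −0.17, for RP1. Without the third day 2 library of both genotypes 0 of 44 were under 0.05, and leaving out single libraries gave 1 to 5.

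**Figure D5:**
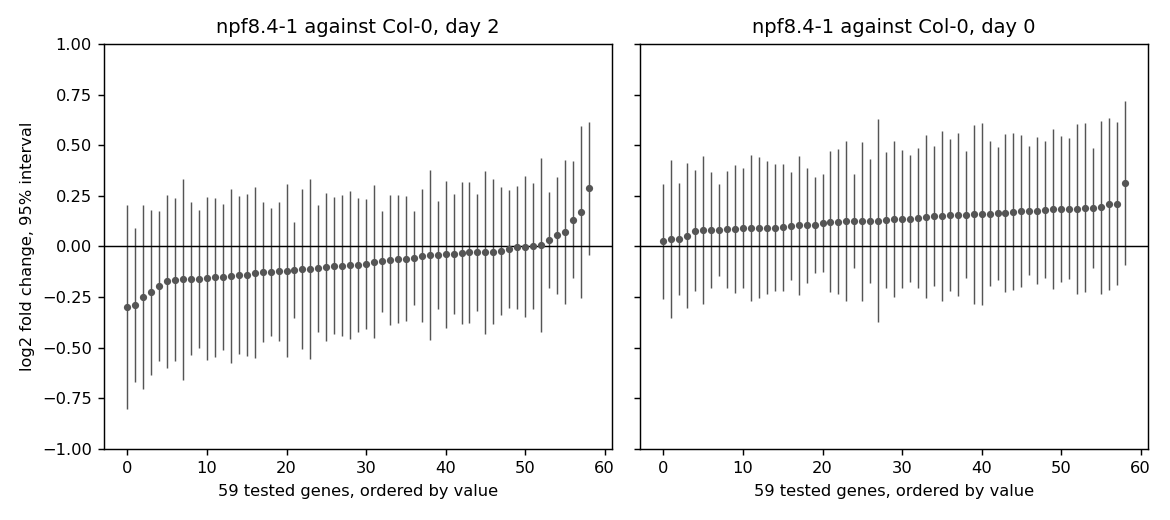
The log2 fold change of npf8.4-1 against Col-0 (vertical axis) with its 95% interval for the 59 tested genes, ordered by value, at day 2 (left) and day 0 (right). Every interval includes zero.

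Most other genes of the large subunit fell too. For the counts below, 31.6% of all tested genes were lower in npf8.4-1 and 30.4% in Col-0. Of 76 other 60S genes, 69 were tested. In npf8.4-1, 68 of them were lower and 1 was higher at day 2 (median log2 fold change −2.11), and in Col-0 67 were lower and 2 did not pass (−1.91). Those with the smallest p in Col-0 included RPL23AB, with −1.97 in npf8.4-1 and −1.91 in Col-0. The gene that was higher in npf8.4-1 was RPL18AA (AT1G29970), singled out after its values were seen, at 0.27 in npf8.4-1 (edgeR adjusted p = 0.0348) and 0.21 in Col-0 (adjusted p = 0.0867). All 24 nuclear genes for the large subunit of the chloroplast ribosome fell as well, with medians of −1.06 in npf8.4-1 and −0.91 in Col-0. The chloroplast L27 gene RPL27 (AT5G40950), for example, had −1.11 in both. Of 18 factors that assemble the 60S subunit, 16 fell, 1 rose and 1 did not pass in each genotype, with medians of −1.87 in npf8.4-1 and −1.75 in Col-0. AT1G67120 had −2.60 in npf8.4-1 and −2.53 in Col-0, and the one that rose was AT4G31420, also singled out afterwards, with 0.52 in npf8.4-1 and 0.35 in Col-0. The differences between these lists and the 60 were not tested.

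Of 9 genes thought to govern ribosome production, 2 fell and 2 rose in npf8.4-1, where 31.6% of all genes fell and 32.5% rose. In Col-0 3 fell and 4 rose, where 30.4% of genes fell and 29.6% rose. With 9 genes these counts are not set apart from the background. NAC082, a transcription factor known from ribosomal stress, fell, with log2 fold changes of −0.45 in npf8.4-1 and −0.47 in Col-0. LST8-1, a partner of the TOR kinase, rose by 0.71 in npf8.4-1 and 0.61 in Col-0. PUR ALPHA-1, a DNA-binding protein, rose by 0.90 in npf8.4-1 and 0.63 in Col-0. S6K2, a kinase that acts on a small-subunit protein, had −0.18 in npf8.4-1 (edgeR adjusted p = 0.758) and 2.18 in Col-0 (adjusted p = 0.00350). Its standard errors were 0.47 in npf8.4-1 and 0.50 in Col-0, and its level averaged 9.06 ± 5.05 TPM at day 2 and 9.74 ± 3.51 at day 0 in npf8.4-1, and 16.8 ± 5.03 at day 2 and 3.48 ± 1.71 at day 0 in Col-0 (SD, n = 3 each). The interaction was called for 0 of the 9, as for 0% of all genes, so no difference between genotypes in the change is shown for S6K2. At day 2, 1 of the 9 was higher in npf8.4-1 than in Col-0 and 8 did not pass, where 1.44% of genes were called. At day 0, 0 of the 9 were called, where 0.149% of genes were.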

How the data were processed

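Poly(A) RNA of young leaves was measured in 12 libraries, 3 in each of 4 groups, which were taken with their replicate numbers from the sample titles. The authors deposited 1 table per library, with a count of exon reads and a TPM value per gene, per the file headers. The submitters' processing notes name the build TAIR10 and the base caller's converter bcl2fastq, version 2.17.1.14. Libraries were made with a stranded kit, per the labels' protocols. Aligner, counting program and strand setting: not given in the sources used here. Reads of overlapping genes and close paralogs may be mixed. Depth was 28761674 to 34282716 reads.

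Counts were tested with edgeR 4.0.16 (R 4.3.3, limma 3.58.1) in 1 fit of 12 libraries and 4 group means, with TMM scaling, filterByExpr and robust dispersion. DESeq2 1.42.0 was an alternative. Other alternatives were other scalings and filters, fewer groups, a replicate block and libraries left out. The fit and the permutation test were tested on simulated data. Replicate libraries differed by more than sampling noise. P-values measure the spread between pools.

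Members were grouped by protein name. All 60 members have the same start and end in RefSeq's TAIR10.1 annotation, as do 32907 of 32908 nuclear genes found in both. Identity was computed with Biopython 1.88. Named genes are the leading paralog of each protein, the extremes of change, shares at the smallest p (at most 8) and up to 4 per other list. Members and lists were chosen with earlier results of these data known.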

Additional observations from a re-analysis of the deposited data

How the results depend on the processing

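The 59 calls in each depletion comparison held under all 14 alternatives, as did the 0 calls for genotype at each day. The 0 for the interaction held under 19. Over all genes DESeq2 called 774 for genotype at day 2, 232 at day 0 and 269 for the interaction, and the replicate block 615, 173 and 43, where edgeR without the block called 279, 29 and 0. Medians of the members lay between −2.41 and −2.10 in npf8.4-1 and between −2.15 and −1.84 in Col-0. For the genotype difference they lay between −0.26 and 0.02 at day 2 and between 0.04 and 0.22 at day 0, and for the interaction between −0.40 and −0.12. Leaving out 1 library gave 59 calls each time in both depletion comparisons, and 0 in the others.

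Shares that differed between days numbered 35 to 37 of 44 under the alternatives, against 36. Shares at an unadjusted exact p under 0.05 between genotypes were 3 of 44. They numbered 0 without the third day 2 library of both genotypes and 1 under the replicate block. When 1 library was left out, they numbered between 1 and 5. There were 5 without npf8.4-1 day 2 replicate 2, and 1 each without npf8.4-1 day 0 replicate 2, Col-0 day 2 replicate 1 and Col-0 day 0 replicate 1. The cause of these shifts was not tested.

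Motif shares moved with the window. Before the start only, site II was present for 78.3% of members, the telo box for 26.7%, both for 23.3% and neither for 18.3%. On the given strand only, the values were 71.7%, 26.7%, 16.7% and 18.3%. To 250 bases after the start, a window added after seeing the data, the telo box was present for 85.0% and both elements for 78.3%. The classes by motif in the text hold for the main window only.

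Same-numbered libraries correlated between −0.17 and 0.42, which is not above 0.1 for every pair, so the numbers were not taken to pair the libraries. Replicates 1 and 3 correlated best with their own number in all 4 comparisons and replicate 2 in none, a hint of pairing from the data and not the design. The replicate block left 59 members called in each depletion comparison and 0 in the others. Each tested member had 73 reads or more in every library. Read sharing between paralogs was not tested.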
